A study of Mus musculus with 6 samples.

Results

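The 10 genes described here belong to the uptake and phosphate transport machinery of the proximal tubule and were read in the kidneys of transgenic and control mice. They were Lrp2, Cubn and Amn (receptors), Dab2 and Lrpap1 (adaptor and chaperone), Slc34a1, Slc34a3 and Slc20a2 (phosphate transporters) and Pdzk1 and Slc9a3r1 (scaffolds). The members were taken by gene symbol, and 10 of 10 were among the 7373 genes listed. All kidneys came from adult male mice of the inbred strain FVB/N. The transgenic mice overexpressed CryAB (αB-crystallin, a chaperone) with the missense mutation R120G. The α-myosin heavy chain promoter, which works in heart muscle cells, drives this transgene, and the mice were sampled before heart failure began (3 samples). The control mice, matched for age and sex, gave the other 3 samples, and the labels give no further genotype for them. Exact ages are not stated, nor whether each sample is 1 animal, so a p-value here reflects only how these 6 samples vary. The series concerns the liability to acute kidney injury in such mice, and the comparison reads the transcripts of this machinery in their kidneys before any injury.

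The proximal tubule takes filtered proteins back from the primary urine. Megalin, the giant receptor encoded by Lrp2, and cubilin, encoded by Cubn, bind albumin, hormones and vitamin carriers at the brush border, and the complex is taken in through clathrin-coated pits. The same membrane recovers phosphate through sodium-coupled transporters, whose number at the surface is lowered by parathyroid hormone and FGF23 and depends on PDZ domain scaffolds under the membrane.

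No member passed the test between transgenic and control kidneys. With the edgeR quasi-likelihood test, 0 of 10 members passed an adjusted p of 0.05, against 0.0139% of the 7194 genes tested, that is 1 gene, the renin gene Ren1. DESeq2 and limma with library weights called 0 members as well. At an unadjusted p under 0.05 there were 0 of 10 members and 131 of all genes (1.82%). The log2 fold changes of the members lay between -0.05 (Slc20a2) and 0.09 (Amn), where all genes ran from -2.64 to 1.33. Of the members 8 were above and 2 below 0, with a median of 0.04, and of all genes 3620 were above and 3574 below, with a median of 0.00. The direction is not stable: 5 members were below 0 without control 2, and 4 without control 3 or without transgenic kidney 2. Since whole kidney was sequenced, fewer cells of a type and less RNA per cell cannot be told apart.

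The libraries held 23.5 to 47.6 M estimated counts over the listed genes, and each member had between 894 (Slc34a3) and 311515 (Slc34a1) counts in a library. Control 3 listed all 178 genes of chromosomes X and Y at 0. No member lies on these chromosomes, and their genes were left out of the fit. Levels are given as CPM, counts scaled to a common library size. Cryab, the endogenous gene of the overexpressed protein, stood at 210, 223 and 292 CPM in controls and at 186, 178 and 194 CPM in transgenic kidneys. It was lower without overlap, at a log2 fold change of -0.38 (95% interval -0.67 to -0.09; -0.22 without control 3), and did not pass the test (unadjusted p = 0.0160, adjusted p = 0.997, edgeR). Since the transgene's promoter is one of heart muscle, these kidney values do not check the labels. Markers of the proximal tubule were present: 19 of 19 genes of its first segments (S1 and S2) and 19 of 19 of its straight segment (S3) were listed. These lists were written with earlier results of these data known, so their full presence is no check of the tissue.

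Lrp2 and Cubn are shown here by sequence, because their levels followed each other across the libraries more closely than those of any other pair of members, and Slc34a1 because it was by far the most abundant member. Each line gives the 250 bases before the annotated start in RefSeq (GRCm38.p6, the assembly that mm10 names), 5′ to 3′ on the strand of the gene. Lrp2 is read from chr2:69586030-69586279 on the minus strand, Cubn from chr2:13491877-13492126 on the minus strand and Slc34a1 from chr13:55399398-55399647 on the plus strand. Capitals mark GTTAAT or its reverse complement, the half-site of HNF1, a transcription factor of the proximal tubule.
Lrp2: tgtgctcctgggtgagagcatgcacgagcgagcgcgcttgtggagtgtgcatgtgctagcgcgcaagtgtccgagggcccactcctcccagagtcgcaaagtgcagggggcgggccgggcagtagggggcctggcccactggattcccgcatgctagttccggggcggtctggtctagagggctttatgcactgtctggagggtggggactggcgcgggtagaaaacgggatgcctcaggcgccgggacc
Cubn: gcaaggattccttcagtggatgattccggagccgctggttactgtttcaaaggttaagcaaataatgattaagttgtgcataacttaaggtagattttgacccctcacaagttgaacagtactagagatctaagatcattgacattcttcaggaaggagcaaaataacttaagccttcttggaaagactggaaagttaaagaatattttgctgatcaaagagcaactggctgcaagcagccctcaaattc
Slc34a1: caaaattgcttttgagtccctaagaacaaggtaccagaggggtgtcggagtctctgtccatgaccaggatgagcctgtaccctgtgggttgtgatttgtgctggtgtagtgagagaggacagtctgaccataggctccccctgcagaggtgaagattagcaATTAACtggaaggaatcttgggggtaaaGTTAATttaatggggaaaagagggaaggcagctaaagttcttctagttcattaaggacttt
The half-site was found on either strand in 6.43% of 32851 such windows in the RefSeq table. Slc34a1 held 2 of them, starting 89 and 61 bases before the start used in that table, and Lrp2 and Cubn held 0 in these windows. The full HNF1 site GTTAATNATTAAC, which contains the half-site, was in 0.00913% of all windows and the HNF4 core CAAAGTCCA in 0.384%, and neither was in the 3 windows. GC content was 66.4% for Lrp2, 39.6% for Cubn and 46.4% for Slc34a1, around a median of 52.4% over all windows. For Slc34a1 that start lies inside the gene span given here for the same gene, so the last bases of its window are within the gene. A match or its absence in these letters says nothing on which factor binds. Windows were matched for 9 of 10 members, all but Slc20a2. Beside Slc34a1, only Dab2 held the half-site, in 1 of its windows and starting 65 bases before the start.

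Lrp2 (gene ID 14725; chromosome 2, 69424335 to 69586029, mm10) encodes megalin, the endocytic receptor. The controls had 1345, 1331 and 1479 CPM and the transgenic kidneys 1502, 1288 and 1393 CPM. The groups overlapped, with the highest and the lowest value both in transgenic kidneys. The means were 1385 ± 82.1 CPM (SD, n = 3) and 1394 ± 107 CPM (SD, n = 3). The log2 fold change was 0.01 with a 95% interval of -0.21 to 0.23, which covers ratios of transgenic to control from 0.86 to 1.17 (adjusted p = 0.997, edgeR).

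Cubn (gene ID 65969; chromosome 2, 13276338 to 13491876) encodes cubilin, which has no membrane span of its own and binds albumin and the complex of vitamin B12 with intrinsic factor. It stood at 392, 395 and 451 CPM in controls and at 472, 391 and 432 CPM in transgenic kidneys. As for Lrp2, transgenic kidney 1 was the highest library, control 3 the next and transgenic kidney 2 the lowest. The log2 fold change was 0.06 (95% interval -0.16 to 0.29; adjusted p = 0.997, edgeR).

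Amn (gene ID 93835; chromosome 12, 111271096 to 111276426) encodes amnionless, the membrane anchor that carries cubilin to the surface. It stood at 335, 327 and 337 CPM in controls and at 348, 368 and 348 CPM in transgenic kidneys. It was the 1 member whose groups did not overlap: every transgenic value was above every control value. Among all genes 5.98% had groups apart, 2.96% higher and 3.02% lower in transgenic kidneys, and among the members 1 of 10 was higher and 0 lower. The difference was small, at a log2 fold change of 0.09 ± 0.07 (SE; 95% interval -0.08 to 0.26), and did not pass the test (unadjusted p = 0.255 and adjusted p = 0.997, edgeR). Summed markers of 3 lists of other cell types also had groups apart. Of 9 podocyte markers 4 were tested, with none at 0 and sums of 155 to 204 CPM in controls and 214 to 253 CPM in transgenic kidneys. Of these 3 were above and 1 below 0 (median 0.14, from -0.02 to 1.26), so 1 gene stood well apart from the median. Of 10 markers of smooth muscle and stroma 5 were tested (median 0.09, 5 above 0). Their sums were 403 to 503 CPM in controls and 833 to 934 CPM in transgenic kidneys. Most of each sum was Ren1, the 1 called gene, at 298, 344 and 252 CPM in controls and 746, 728 and 655 CPM in transgenic kidneys. Only Ren1 among these 5 had groups apart, and without it the sums overlap between the groups. Of 11 markers of urothelium and adrenal gland 3 were tested, with sums of 171 to 173 CPM in controls and 156 to 160 CPM in transgenic kidneys. These 3 went opposite ways, 1 above and 2 below 0 (from -0.78 to 0.43), with 1 higher and 1 lower without overlap. Markers of the thick ascending limb and of macrophages and dendritic cells were below 0 in 7 of 8 each (medians -0.10 and -0.18), with overlapping sums. The 4 tested red blood cell markers were all below 0 (median -0.28, from -2.64 to -0.12), and their sums overlapped. Of 6 tested endothelial markers 4 were above and 2 below 0 (median 0.07), with 2 higher and 1 lower without overlap. The endothelial sums overlapped. The part of these cell types in the Amn values was not tested.

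**Figure D1:**
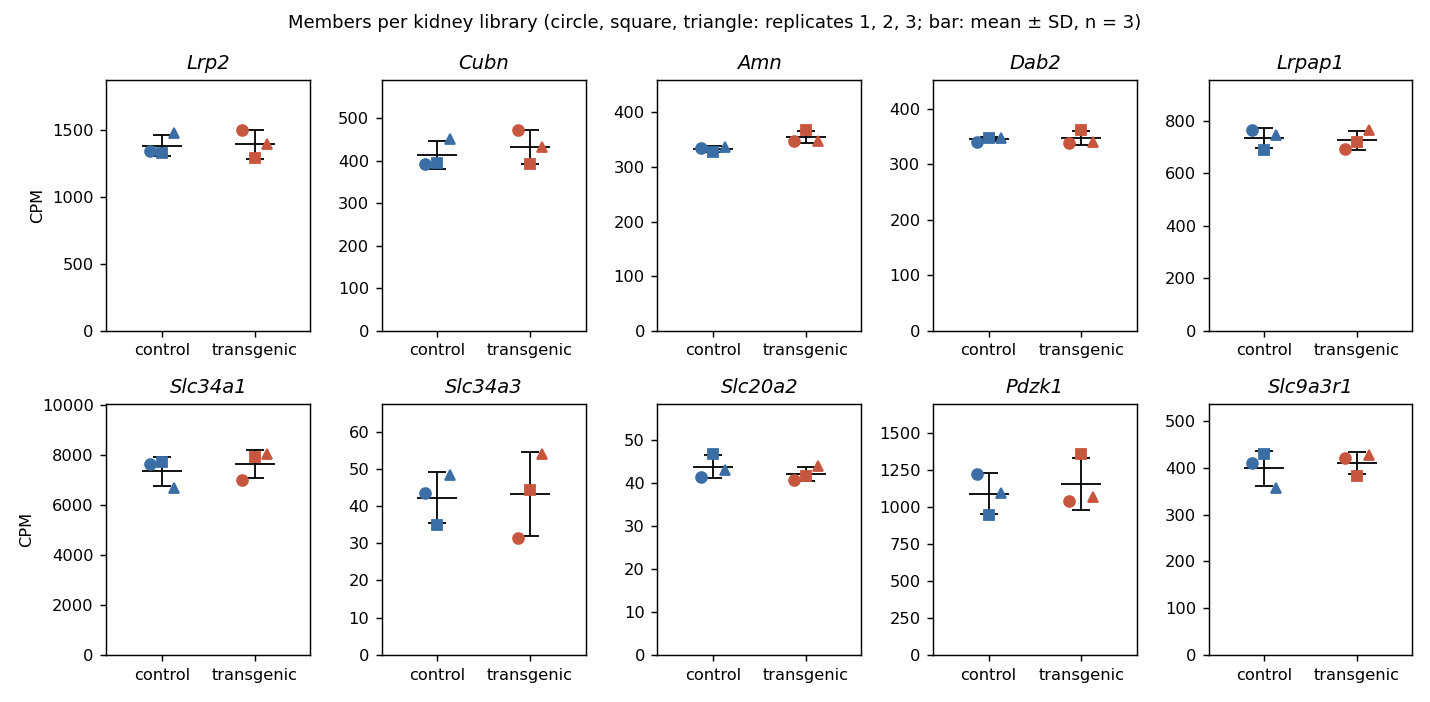
Level of each member in CPM (y axis from 0) in 3 control and 3 transgenic kidneys; symbols are replicates and bars the mean with SD. The groups overlap in every panel except Amn, where the transgenic values of 348 to 368 CPM lie above the control values of 327 to 337 CPM.

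Dab2 (gene ID 13132; chromosome 15, 6299788 to 6440715) encodes the clathrin adaptor that binds the cytoplasmic tail of megalin. It stood at 341, 348 and 348 CPM in controls and at 339, 362 and 341 CPM in transgenic kidneys. The control values fell inside the transgenic range, and the log2 fold change was 0.01 (95% interval -0.16 to 0.18). Lrpap1 (gene ID 16976; chromosome 5, 35091490 to 35105699) encodes RAP, the chaperone that keeps megalin and its relatives from binding ligands in the endoplasmic reticulum. It stood at 766, 691 and 747 CPM in controls and at 694, 719 and 764 CPM in transgenic kidneys. Here all transgenic values lay within the control range, and the log2 fold change was -0.02 (95% interval -0.21 to 0.18). Both had an adjusted p of 0.997 with edgeR.

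Slc34a1 (gene ID 20505; chromosome 13, 55399622 to 55414695) encodes NaPi-IIa, the main phosphate transporter of the mouse brush border. It was the fifth most abundant of all genes tested, with 0.655% to 0.814% of the counts of the tested genes in a library. Of the summed CPM of the 10 members it made up 57.7% to 63.0%. It stood at 7621, 7737 and 6694 CPM in controls and at 7015, 7921 and 8030 CPM in transgenic kidneys. Control 3 and transgenic kidney 1 were the lowest libraries and the 2 groups overlapped. The means were 7351 ± 572 CPM (SD, n = 3) and 7656 ± 558 CPM (SD, n = 3), and the log2 fold change was 0.06 (95% interval -0.21 to 0.33; adjusted p = 0.997, edgeR). Without control 3 it was -0.004.

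Slc34a3 (gene ID 142681; chromosome 2, 25228897 to 25234270) encodes NaPi-IIc, the second type II transporter of the brush border. It stood at 43.5, 34.8 and 48.4 CPM in controls and at 31.4, 44.3 and 53.9 CPM in transgenic kidneys. Its lowest and highest values were both in transgenic kidneys, and it was the most variable member, with an SD within groups of 0.324 on the log2 scale, at percentile 95.2 of all genes. The interval of its log2 fold change of 0.03 was therefore the widest, from -0.42 to 0.49, which leaves ratios between 0.75 and 1.40. The value was -0.16 without transgenic kidney 3 and 0.22 without transgenic kidney 1 (adjusted p = 0.997 with all libraries, edgeR).

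Slc20a2 (gene ID 20516; chromosome 8, 22476700 to 22569616) encodes PiT-2, a type III phosphate transporter that is found in many tissues. It stood at 41.5, 46.7 and 43.1 CPM in controls and at 40.8, 41.7 and 44.0 CPM in transgenic kidneys. The groups overlapped, and the log2 fold change of -0.05 was the lowest among the members (95% interval -0.25 to 0.15; adjusted p = 0.997, edgeR). It lay below 0 whichever library was left out, between -0.09 and -0.01.

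Pdzk1 (gene ID 59020; chromosome 3, 96829456 to 96870926) encodes a scaffold with PDZ domains that binds NaPi-IIa and other brush border transporters. It stood at 1227, 949 and 1096 CPM in controls and at 1041, 1359 and 1069 CPM in transgenic kidneys. Transgenic kidney 2 and control 1 were the highest libraries and control 2 the lowest, so that the groups overlapped. The log2 fold change was 0.08 (95% interval -0.23 to 0.40; adjusted p = 0.997, edgeR), and it was -0.05 without transgenic kidney 2 and 0.18 without control 1. Slc9a3r1 (gene ID 26941; chromosome 11, 115163341 to 115181178) encodes NHERF1, which ties NaPi-IIa to the actin cytoskeleton through ezrin. It stood at 411, 429 and 357 CPM in controls and at 420, 383 and 428 CPM in transgenic kidneys. Control 3 was the lowest and control 2 the highest library, and the log2 fold change was 0.04 (95% interval -0.18 to 0.26; adjusted p = 0.997, edgeR).

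**Figure D2:**
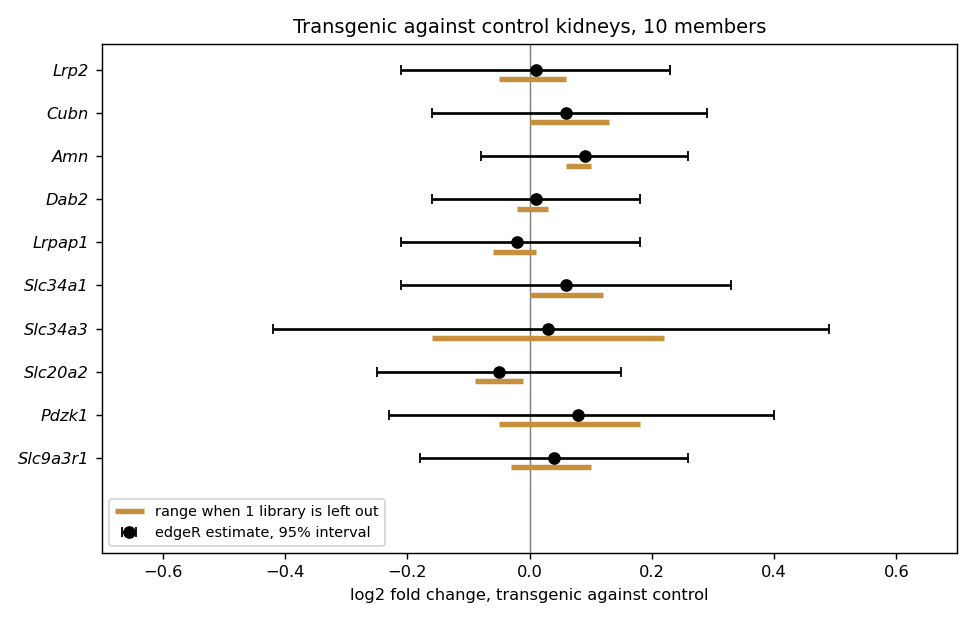
Log2 fold change of transgenic against control kidneys (x axis) for the 10 members, with the 95% interval of the edgeR fit in black and the range when 1 library is left out in orange. All intervals include 0, and the intervals of Slc34a3 (-0.42 to 0.49) and Pdzk1 (-0.23 to 0.40) are the widest.

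The members differed in how steady they were between kidneys. Amn and Dab2 had SDs within groups of 0.0367 and 0.0392 on the log2 scale, at percentiles 1.43 and 1.83 of all genes tested, whose median was 0.14. Slc20a2, Lrpap1, Lrp2, Slc34a1, Slc9a3r1 and Cubn lay between 0.0719 and 0.125. Pdzk1 (0.199, percentile 76.0) and Slc34a3 (0.324) varied more than the median gene. Amn and Slc34a3 had counts of 8413 to 15706 and of 894 to 2251 per library, so their depth differed too. Slc20a2, with counts of 953 to 2007 per library, had an SD of 0.0719. The part of depth in these spreads was not tested.

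Levels between genes can be set side by side per length, here as CPM per kilobase of annotated exon. Slc34a1 was highest at 1605 ± 114 (SD, n = 6), followed by Pdzk1 at 316 ± 41.2, Slc9a3r1 at 210 ± 14.9, Amn at 187 ± 7.70 and Lrpap1 at 177 ± 8.20 (each n = 6). Lrp2 followed at 83.2 ± 5.12, Dab2 at 47.2 ± 1.17, Cubn at 28.3 ± 2.32, Slc34a3 at 18.1 ± 3.56 and Slc20a2 at 6.92 ± 0.347 CPM per kilobase (each n = 6). In this order the ranges of neighbours were apart except for Slc9a3r1 and Amn and for Amn and Lrpap1, where 5 of 6 libraries held the order. The exon lengths pool all annotated transcripts of a gene, 1.84 kb for Amn and 16.7 kb for Lrp2, and may differ from those the authors counted on. With other lengths this order and the ratios per length could change, while the differences between groups would not. The ranges over libraries do not measure this.

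Per length Lrp2 exceeded its partner Cubn 2.85 to 3.07 times in the 6 libraries, the narrowest range of the 9 pairs of partners compared (0.11 on the log2 scale). The ratio was 3.07, 3.01 and 2.94 in controls and 2.85, 2.95 and 2.89 in transgenic kidneys, so that the groups overlapped only at control 3 and transgenic kidney 2. The log2 ratio differed by -0.05 (exact permutation test, two-sided, p = 0.2, adjusted p = 1.0 over 9 pairs, n = 3 and 3). With 3 against 3 this test cannot go below 0.1. Cubn stood at 0.131 to 0.167 of its anchor Amn per length, and Lrp2 at 1.56 to 1.95 times its adaptor Dab2 and at 0.433 to 0.534 of its chaperone Lrpap1. For these 3 ratios no difference beyond the spread was found (exact permutation test p = 1.0, 1.0 and 0.8).

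Slc34a1 exceeded Slc34a3 by 69.8 to 113 times per length and Slc20a2 by 206 to 253 times. The first ratio was lowest in control 3 and highest in transgenic kidney 1, where Slc34a3 was lowest. The differences between groups were 0.05 and 0.11 on the log2 scale (exact permutation test p = 0.7 and 0.3, n = 3 and 3). Against the scaffolds, Slc34a1 was 4.43 to 6.20 times Pdzk1 and 6.87 to 8.51 times Slc9a3r1 per length, and Pdzk1 was 1.20 to 1.92 times Slc9a3r1. These 3 differed between the groups by -0.02, 0.02 and 0.04 on the log2 scale (exact permutation test p = 0.9, 0.8 and 1.0, n = 3 and 3).

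Likeness across the libraries was measured as the root-mean-square difference of log2(CPM + 0.5) after each gene's mean over the 6 libraries was taken off. Cubn was the member nearest to Lrp2, at 0.0357, where the median over all genes was 0.143. Transgenic kidney 1, control 3 and transgenic kidney 3 were the highest 3 libraries for both receptors. Slc34a1 ran the other way in the first 2 of these, which were its lowest. Per length it was 16.2 and 16.7 times Lrp2 in control 3 and transgenic kidney 1, and at least 20.2 times in each of the other 4 libraries. The summed CPM of the 19 S1 and S2 genes was also highest in those 3 libraries (20269 in control 3, 20426 in transgenic kidney 1 and 20646 in transgenic kidney 3) and lowest in transgenic kidney 2 (16989). It was 18617 and 18371 in controls 1 and 2. Not every gene of that list followed the sum: the glucose transporter gene Slc5a2 was lowest in transgenic kidney 1, at 357 CPM. The S3 genes summed to 14359 to 15365 CPM in controls and 13789 to 14736 CPM in transgenic kidneys. The part of tubule segments in the order of the libraries was not tested.

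Among all genes the profile of Lrp2 was nearest to those of Cpd (0.0196), Elovl5 (0.0197) and Fads1 (0.0268). Cpd encodes a carboxypeptidase, and Elovl5 and Fads1 encode an elongase and a desaturase of polyunsaturated fatty acids. Slc34a1 was nearest to Ppap2c (0.0180), Mapk3 (0.0233) and Nelfcd (0.0251). Mapk3 encodes the kinase ERK1. Of the members Slc9a3r1 was nearest to Slc34a1 (0.0908), Dab2 to Amn (0.0456), to Lrpap1 (0.0745) and to Slc20a2 (0.0699), Amn to Pdzk1 (0.137) and Lrpap1 to Slc34a3 (0.214). Slc34a3 was the farthest member from each of the other 9. With steady genes this measure is small by construction, so it describes these 6 libraries only.

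**Figure D3:**
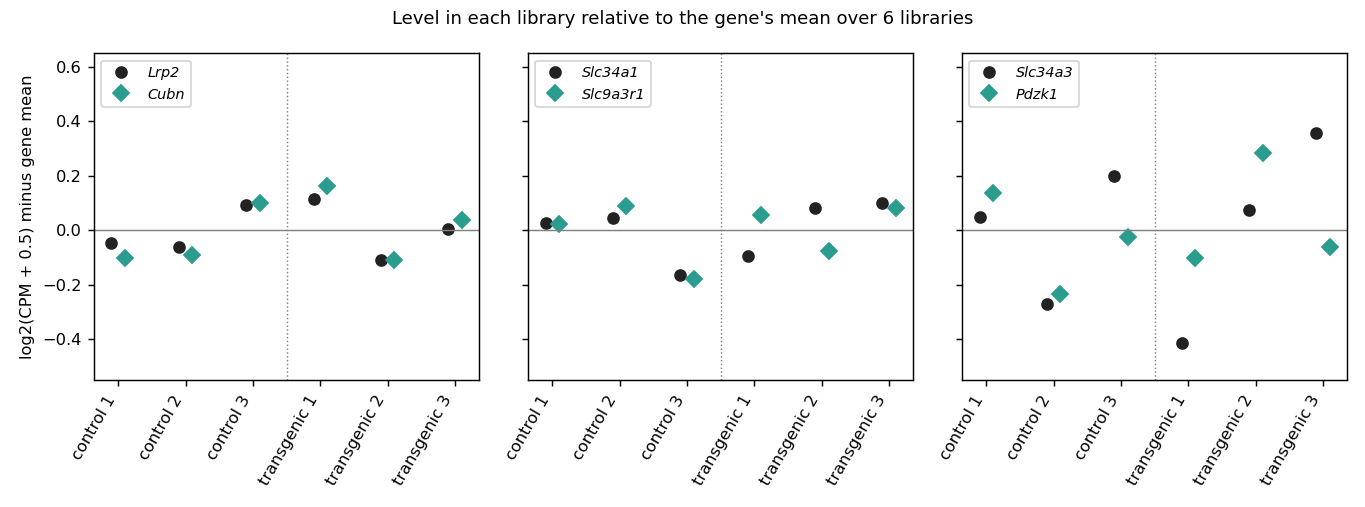
Level of 6 members in each library as log2(CPM + 0.5) minus the gene's mean over the 6 libraries (y axis); the dotted line parts controls from transgenic kidneys. Lrp2 and Cubn lie close together in every library, Slc34a1 is lowest in control 3 and transgenic kidney 1, and Slc34a3 is lowest in transgenic kidney 1 and highest in transgenic kidney 3.

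The machinery around the members was read from 5 lists, on which 103 genes were tested. None passed an adjusted p of 0.05 with edgeR, 2 had an unadjusted p under 0.05, 50 were above and 53 below 0, and the median log2 fold change was -0.01. Slc17a1 stands on 2 of the lists.

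Of 43 genes of the endocytic apparatus, such as clathrin, its adaptor subunits and the Rab proteins of endosomes, 35 were tested. Of these 12 were above and 23 below 0, with a median of -0.04. The smallest p-values among those below 0 were those of Rab38, a small GTPase of vesicle traffic (-0.29 ± 0.14, SE), and Vps35 of the retromer (-0.30 ± 0.16). Among those above 0 they were those of the cystinosis gene Ctns (0.20 ± 0.11) and of Rab11fip3, an effector of recycling endosomes (0.15 ± 0.15), which was at -0.01 without control 3. Vps35 stood at 111, 99.6 and 154 CPM in controls and at 89.9, 98.5 and 107 CPM in transgenic kidneys, and its log2 fold change was -0.10 without control 3. Clcn3, an endosomal chloride and proton exchanger, was the 1 gene of these 35 whose groups did not overlap (-0.16 ± 0.11). Among all genes 5.98% had groups apart. Clcn3 is named after its values were seen. Its relative Clcn5 was not analysed here. The motor protein gene Myo6 was at -0.06.

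Of 15 genes on the list of receptors that RAP serves, with the receptor chaperone Mesdc2, 5 were tested. Lrp3 was at 0.17 ± 0.15 (SE), Vldlr at 0.06, Lrp6 at -0.01 and Mesdc2 at -0.03. Lrp3 was at 0.06 without control 3. Lrp1 was not analysed here. On the list of filtered ligands and vitamin handling, 22 of 37 genes were tested, 12 above and 10 below 0, with a median of 0.03. Tcn2, the vitamin B12 carrier transcobalamin, was abundant and close to even, at 2894, 2567 and 3014 CPM in controls and 2866, 2936 and 2871 CPM in transgenic kidneys (0.03). Its cell receptor gene Cd320 was at 0.14 ± 0.09, the selenium carrier gene Sepp1 at -0.30 ± 0.19, and Mut, a B12-dependent mutase, at -0.19 ± 0.13. Without control 3 the last 2 were at -0.08 and -0.03. The vitamin D receptor gene Vdr was at 0.03 ± 0.14. Cyp27b1 and Cyp24a1, the enzymes that make and break down active vitamin D, were not analysed here.

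Of 40 genes of phosphate transport and its hormonal control 25 were tested, 14 above and 11 below 0, with a median of 0.02. Among transporters, Slc20a1 (PiT-1) was at 0.14 ± 0.18 (SE), the phosphate exporter gene Xpr1 at 0.05 ± 0.10 and the mitochondrial carrier gene Slc25a3 at -0.01 ± 0.09. Pth1r, the parathyroid hormone receptor, stood at 771, 848 and 747 CPM in controls and at 812, 771 and 811 CPM in transgenic kidneys (0.02). Kl, the co-receptor of FGF23, stood at 354, 348 and 436 CPM in controls and at 383, 352 and 408 CPM in transgenic kidneys (0.01). The groups overlapped for both. The FGF receptor genes Fgfr1, Fgfr3 and Fgfr4 were at 0.23 ± 0.16, 0.25 ± 0.19 and 0.20 ± 0.20. For Fgfr1 and Fgfr4 control 3 was the lowest library, at 33.2 and 55.4 CPM, and without it they were at 0.06 and -0.005. Fgfr3 was at 0.11 without control 1, 0.13 without control 3 and 0.53 without control 2. Enpp1, which makes pyrophosphate, was higher in all 3 transgenic kidneys without overlap (0.16 ± 0.09, unadjusted p = 0.106 with edgeR). It was the 1 such gene of these 25, where 5.98% of all genes had groups apart. Prkacb (-0.16), a catalytic subunit of protein kinase A, and Galnt3 (-0.21), which glycosylates FGF23, overlapped. Without control 3, Slc20a1 was at 0.01, Prkacb at -0.02 and Galnt3 at 0.05.

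Of 26 partners of the PDZ scaffolds 17 were tested, 9 above and 8 below 0, with a median of 0.02. Slc9a3, the sodium and proton exchanger NHE3 that gave NHERF1 its name, stood at 147, 164 and 136 CPM in controls and at 184, 170 and 165 CPM in transgenic kidneys. The groups did not overlap, but the closest values were 164 and 165 CPM, and the log2 fold change of 0.21 ± 0.09 (SE) did not pass (unadjusted p = 0.0523, adjusted p = 0.997, edgeR). Slc5a8, a monocarboxylate transporter with a PDZ binding end, stood at 262, 239 and 284 CPM in controls and at 226, 239 and 217 CPM in transgenic kidneys. It was lower without overlap, though the closest values both round to 239 CPM, at -0.20 ± 0.09 (unadjusted p = 0.0495, adjusted p = 0.997, edgeR). Of these 17 genes only Slc9a3 was higher and only Slc5a8 lower without overlap, against 2.96% and 3.02% of all genes. The actin linkers Ezr and Rdx were at -0.10 ± 0.08 and -0.30 ± 0.16, the second scaffold gene Slc9a3r2 at 0.04, Pdzk1ip1, a small partner of PDZK1, at 0.07 and the phospholipase gene Plcb3 at 0.16 ± 0.15. Rdx was at -0.15 without control 3 or without transgenic kidney 1, and Plcb3 at -0.001 without control 3.

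**Figure D4:**
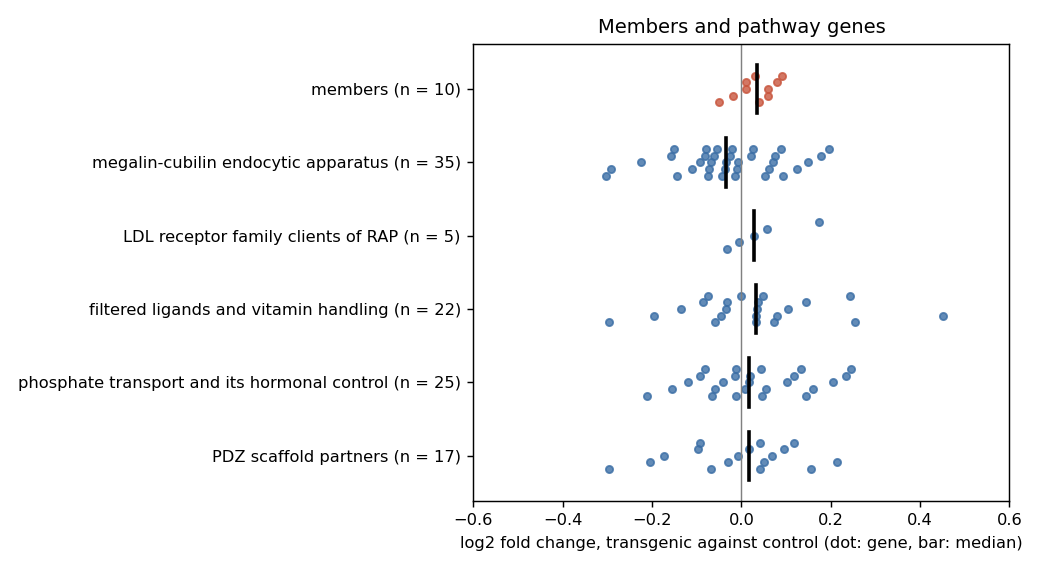
Log2 fold change of transgenic against control kidneys (x axis) for the 10 members and for the tested genes of 5 lists, 1 dot per gene with the median as a bar. The list medians lie between -0.04 (endocytic apparatus) and 0.03, and the members lie between -0.05 and 0.09.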

How the data were processed

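RNA of 3 transgenic and 3 control kidneys was sequenced on an Illumina instrument, per the labels, from halved, frozen whole kidneys. The build was mm10, per the submitters' processing notes. The sources used here do not give the aligner, the counting program or the library strandedness. The deposited raw columns hold estimated counts per gene. The deposited normalized columns hold log2 values, which equal the log2 of those counts less 1 factor per library and 1 baseline per gene (largest deviation 1.9e-06), and served 1 alternative. A filter named in the file headers asked for NRPKM from 5.0 to 84233.281 in 2 or more of 6 uninjured kidneys, so genes that reached this in fewer than 2 of them are not part of the results. Another 12 columns of per-sample values match none of these samples and were not used.

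Estimated counts were rounded. Genes of chromosomes X and Y were left out, because control 3 lists all 178 at 0. The edgeR quasi-likelihood test (version 4.0.16, R 4.3.3) with group as the only term followed filterByExpr, which left 7194 of 7195 genes, and TMM normalization. P-values were two-sided and adjusted by the Benjamini-Hochberg method over all genes tested. Standard errors are the log2 fold change over the square root of F, and intervals cover 95%. The biological coefficient of variation was 0.133. Ratios of member pairs were tested by an exact permutation test over samples. On simulated counts for 7194 genes with 200 changed in each of 3 runs, the transgenic against control test recovered 57.7% of 1.5-fold and 100.0% of 2.5-fold changes. Fewer changed genes would make the adjusted threshold harder to pass. The simulated counts were drawn separately for each gene, without a deviation shared across a library. Libraries differed beyond counting error in every pair (chi-square per degree of freedom 23.3 to 152).

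Gene positions and promoters came from RefSeq for GRCm38.p6, and exon lengths from GENCODE M21 on the same assembly. The named genes are the 10 members, up to 2 higher and 2 lower genes with the smallest p-values per list, textbook partners, the 3 genes most like Lrp2 and Slc34a1, and Cryab. Some of what this rule takes is not reported here. The members and lists were chosen with earlier results of these data known. Alternatives were X and Y genes kept, DESeq2 (version 1.42.0) and its size factors, no filter or a minimum mean of 100 counts, limma (version 3.58.1) with array weights or on the deposited log2 values, the replicate number as a block, and each library left out.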

Additional observations from a re-analysis of the deposited data

How the results depend on the processing

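All settings were planned. The count of members called was 0 in all 14 alternatives, and the smallest adjusted p of a member was 0.641 (limma with array weights). The count of all genes called was 1 in the main test, 0 with X and Y genes kept or with the deposited log2 values, 2 with DESeq2, and 0 to 2 without 1 library. Genes with an unadjusted p under 0.05 numbered 131 in the main edgeR test. That number was 634 with limma and array weights, and with edgeR 597 without control 2 and 47 without transgenic kidney 1. The smallest unadjusted p of a member was 0.0819 (limma with array weights). The members below 0 numbered 2, against 5 with array weights and 3 to 5 without 1 library. Of 140 member values under alternatives 123 kept their direction and none passed the threshold. Amn and Slc20a2 kept theirs in all 14. Array weights, which were 0.191 for control 3 and 3.91 for control 1, turned Slc34a1 (-0.01), Slc34a3 (-0.04), Pdzk1 (-0.07), Rab11fip3 (-0.005), Mesdc2 (0.07), Vdr (-0.06), Cpd (0.04), Ppap2c (-0.03), Mapk3 (-0.02) and Nelfcd (-0.02). Without 1 library the log2 fold changes of the members ran from -0.05 to 0.06 for Lrp2, -0.004 to 0.13 for Cubn, -0.02 to 0.03 for Dab2, -0.06 to 0.01 for Lrpap1, -0.004 to 0.12 for Slc34a1, -0.16 to 0.22 for Slc34a3, -0.05 to 0.18 for Pdzk1 and -0.03 to 0.10 for Slc9a3r1. The other named genes that changed sign ran from -0.01 to 0.24 for Rab11fip3, -0.03 to 0.11 for Vldlr, -0.10 to 0.02 for Mesdc2, -0.08 to 0.08 for Lrp6, -0.36 to 0.05 for Galnt3, -0.001 to 0.28 for Plcb3, -0.03 to 0.08 for Tcn2, -0.13 to 0.11 for Vdr, -0.02 to 0.13 for Xpr1, -0.07 to 0.03 for Slc25a3, -0.02 to 0.07 for Pth1r, -0.05 to 0.12 for Kl, -0.005 to 0.42 for Fgfr4, -0.01 to 0.12 for Slc9a3r2, -0.05 to 0.04 for Cpd, -0.02 to 0.07 for Elovl5, -0.01 to 0.10 for Fads1, -0.04 to 0.09 for Ppap2c and -0.01 to 0.10 for Mapk3. Log2 ratios of pairs ran from -0.11 to 0.07 for Cubn/Amn, -0.07 to 0.09 for Lrp2/Dab2, -0.06 to 0.08 for Lrp2/Lrpap1, -0.12 to 0.22 for Slc34a1/Slc34a3, -0.13 to 0.13 for Pdzk1/Slc9a3r1, -0.11 to 0.11 for Slc34a1/Pdzk1 and -0.06 to 0.09 for Slc34a1/Slc9a3r1. The cause of these changes was not tested.

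With the replicate number as a block, 0 members were called, Lrp2 was at 0.01 and Slc34a3 at 0.02, and the count of genes called stayed at 1. The correlations of same-numbered libraries were 0.00, 0.03 and 0.34, so the numbers are not taken to pair the samples. The smallest count behind a member's value was 894. With 3 samples a group, the test recovered 57.7% of 1.5-fold changes on simulated counts.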

Other observations

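All 545 exon bases of Pfn3, a profilin gene, lie within exons of Slc34a1 on the opposite strand. Pfn3 stood at 140, 162 and 112 CPM in controls and at 163, 144 and 162 CPM in transgenic kidneys, and without a stated strand its reads cannot be told apart from those of Slc34a1. Pdzk1 shares 1333 exon bases with Gpr89 on the opposite strand, which stood at 26.2 to 28.1 CPM in controls and 26.3 to 30.8 CPM in transgenic kidneys, and Slc20a2 shares 95 with Smim19, at 47.4 to 56.4 CPM in controls and 49.6 to 52.7 CPM in transgenic kidneys.

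The spread of Slc34a3 had near matches among other genes. This was looked at after its values were seen. Its profile over the 6 libraries was nearest to Dusp6 (0.0719), a phosphatase of ERK, Dcn (0.0793), the matrix protein decorin, and Slc5a2 (0.0975), the glucose transporter SGLT2 of the first tubule segments, where the median over all genes was 0.288. Slc5a2 stood at 519, 419 and 633 CPM in controls and at 357, 473 and 590 CPM in transgenic kidneys. Like Slc34a3 it was lowest in transgenic kidney 1 and next lowest in control 2. Slc34a3 had 8.37, 8.30 and 7.64 CPM per 100 CPM of Slc5a2 in controls and 8.79, 9.37 and 9.14 in transgenic kidneys. These values do not overlap between the groups, but the pair was picked from 7194 genes for its likeness, so no test is given. The same ratio to the nearer genes Dusp6 and Dcn did overlap between the groups.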
